A study of Mus musculus with 18 samples.

Results

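Loss of the histone methyltransferase G9a was compared between plasma cells and activated B cells of mouse spleen, to find the genes whose response to the knockout differed between these cell types. The measure for each gene was the knockout effect in plasma cells minus the knockout effect in activated B cells, that is (plasma cell KO minus plasma cell Ctrl) minus (activated B KO minus activated B Ctrl). It was computed from 12 of the 18 libraries of the series, 3 in each of the 4 groups, numbered 1, 3 and 4. Control mice (Ctrl) were heterozygous for a Cre recombinase knock-in allele. Knockout mice (KO) were G9afl/fl and carried 1 copy of the same Cre allele. All 12 libraries came from mice given 50 µg of lipopolysaccharide (LPS), a bacterial cell wall component that activates B cells, in 100 µl through the tail vein, and spleens were taken 72 h later. Activated B cells were sorted as B220+GL7+ and plasma cells as CD138+ with intermediate or low B220, in each case without dead cells and without cells positive for F4/80, CD11b or Thy1.2. Each library was made from 1000 cells. The Cre recombinase is made in B lineage cells in both genotypes, and only KO mice carry the floxed allele. Age and sex are not given in the labels used here. Nothing in the labels says that replicates are different animals. The p-values therefore reflect only how these samples vary, which may be technical. The 6 naive B cell libraries are from uninfected mice and did not enter the fit.

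G9a, encoded by Ehmt2, adds methyl groups to lysine 9 of histone H3 (H3K9), which keeps chromatin silent, and works mostly as a heterodimer with the related enzyme GLP, encoded by Ehmt1. An activated B cell proliferates, displays antigen receptor and MHC class II, and can turn into a plasma cell. A plasma cell shuts down much of that B cell program through the repressor Blimp-1 (Prdm1) and expands the endoplasmic reticulum (ER) through Xbp1 in order to secrete antibody. A gene can therefore start from very different control levels in the 2 cell types, and the contrast reads how far the knockout moved it from each of those levels.

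Values are reads per kilobase and per unit of sequenced reads (RPKM), scaled between libraries. All differences are on the log2(scaled RPKM + 1) scale, where 1 is a doubling for a gene well above 1 RPKM and less than that for a low gene. Estimated depth was 2.66 to 10.7 M reads (M, mega-reads) in activated B libraries, the lowest being KO 3, and 5.13 to 6.92 M in plasma cell libraries. Replicates correlated across genes at 0.989 to 0.995, and the median SD of a gene was 0.112 to 0.131 in the 4 groups. The sorted populations carried their defining markers: Sdc1, which encodes CD138, measured 134 to 187 in plasma cells and 0.439 to 1.27 in activated B cells, and Pax5 measured 7.21 to 22.1 in activated B cells and 0.257 to 0.925 in plasma cells. Ehmt2 (Entrez 110147, GRCm38 chr17:34898463-34914073) measured 21.4, 19.3 and 25.7 in activated B Ctrl against 22.5, 21.8 and 21 in KO, and 17.4, 16 and 17.6 in plasma cell Ctrl against 14.6, 12.3 and 14.2 in KO. The knockout effect on Ehmt2 RNA was not called as different between the cell types (difference -0.29, SE 0.15, limma adjusted p = 0.357), nor called within either. Whole-gene RPKM counts the exons left after deletion as well, so the deletion itself was not checked. In bulk libraries such as these, fewer cells expressing a gene and less RNA per cell cannot be told apart.

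The knockout effect differed between plasma cells and activated B cells at 277 genes. It was more positive in plasma cells at 228 of 10391 genes tested (2.19%) and more negative at 49 (0.472%), by limma with Benjamini-Hochberg adjusted p under 0.05. At an unadjusted p under 0.05 there were 1651. The median difference over all genes was 0.02. Among the 228 the difference ran from 0.37 to 2.84 and reached 1 or more at 77 genes, and among the 49 it ran in size from 0.40 to 2.60 and reached 1 at 17. Within the same fit the knockout effect itself was called at 785 higher (7.55%) and 1211 lower genes (11.7%) in activated B cells, and at 456 higher (4.39%) and 413 lower genes (3.97%) in plasma cells. Without plasma cell KO 3, activated B Ctrl 4 or plasma cell Ctrl 1 the count of 228 was 142, 144 and 147. The count of 49 was 23 without activated B Ctrl 4 or plasma cell Ctrl 1, 29 and 30 without plasma cell KO 1 or 3, and 31 without activated B KO 3. A fit of all 18 libraries called 20 and 0, and limma array weights gave 401 and 100. Genes just inside the threshold were Slc3a2 at an adjusted p of 0.049 and Tram1 at 0.048, and just outside lay Akr1c12 at 0.060.

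A more positive effect in plasma cells arose in distinct ways. Of the 228 genes, 87 were called higher in plasma cell KO. Of these, 63 were not called in activated B cells, 17 were called lower there, and 7 were higher in both cell types but more so in plasma cells. The other main group were 139 genes that were lower in activated B KO and not higher in plasma cell KO: 123 were not called in plasma cells, and 16 were lower in both cell types but more so in activated B cells. The last 2, Sh3kbp1 and Leprot, were called in neither cell type alone. Of the 49 genes with a more negative effect, 31 were higher in activated B KO and not called in plasma cells, 13 were lower in plasma cell KO and not called in activated B cells, and 2 (Isg15 and Vpreb3) were lower in both but more so in plasma cells. The remaining 3 were Gnl3 and Mgme1, higher in activated B KO and lower in plasma cell KO, and Dctn6, called in neither. In all, 19 genes were called in opposite directions in the 2 cell types. A gene called in only 1 cell type is counted here because the difference between cell types itself passed the test.

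**Figure D1:**
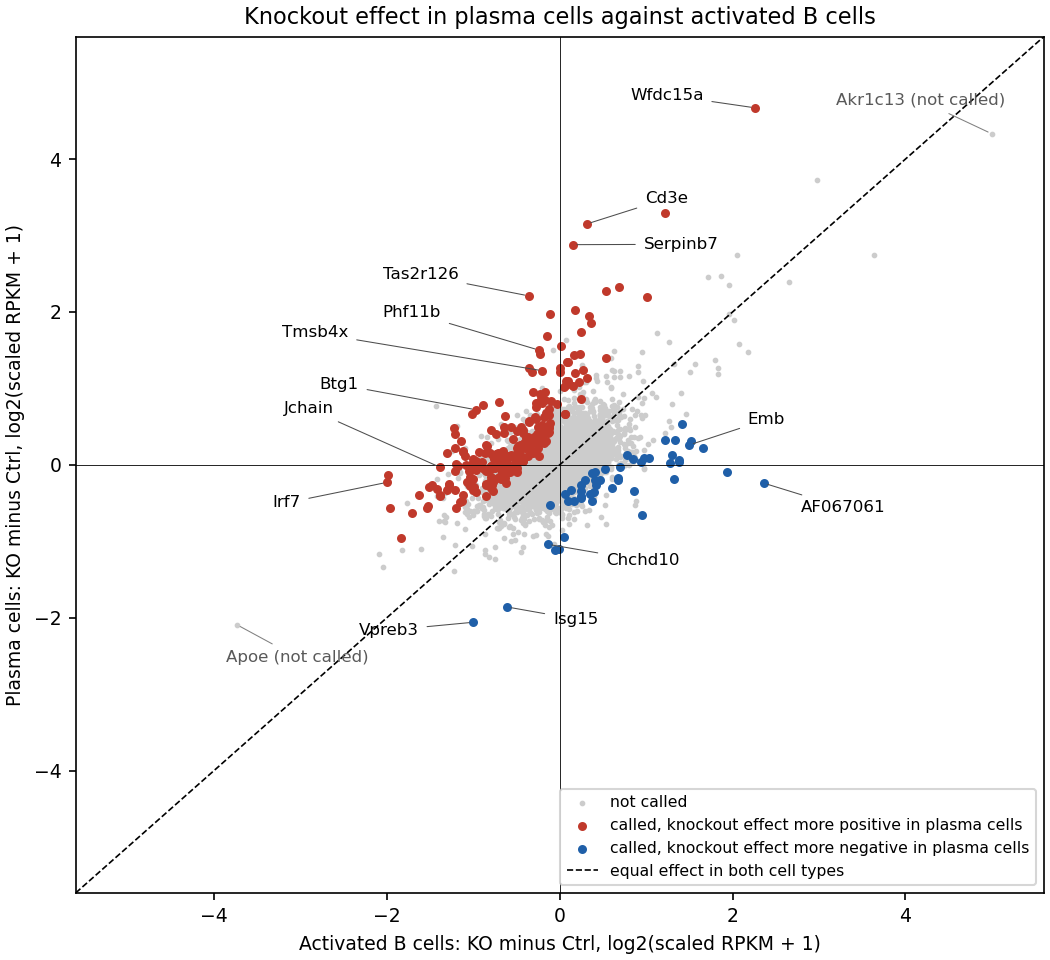
Each point is 1 of 10391 genes, with its knockout effect in activated B cells (KO minus Ctrl, log2(scaled RPKM + 1)) on the x axis and in plasma cells on the y axis. Red points are the 228 genes with an effect more positive in plasma cells, blue points the 49 with a more negative effect, grey points are genes not called, and the dashed line marks equal effects. Cd3e, Serpinb7 and Wfdc15a lie far above the line, and AF067061, Isg15 and Vpreb3 below it.

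The largest responses that belonged to plasma cells came from genes that were low in Ctrl cells of both types. Cd3e (Entrez 12501, chr9:44998735-45009663) encodes the CD3 epsilon chain of the T cell receptor complex. It measured 0.108, 0.12 and 0 in plasma cell Ctrl and 7.11, 8.72 and 10 in plasma cell KO, and no activated B library exceeded 0.653. The 3 plasma cell KO libraries thus stood apart from the 9 others. Lack of overlap in at least 1 cell type was a condition for naming the genes with the largest differences. Such separation therefore adds no support, here or below. Cd3e also reached the filter for testing, a group mean of 1 RPKM, through plasma cell KO alone. The difference was 2.84 (SE 0.25, limma adjusted p = 1.6e-05). Within 1 cell type, all KO libraries lay above all Ctrl libraries at 13.3% of all genes in plasma cells and 15.4% in activated B cells. They lay below at 15.7% and 21.8%. The share of genes with 3 libraries apart from all 9 others was not computed. Of 9 listed T cell markers 3 had values, Cd3e itself, Cd4 and the kinase Lck. Cd4 and Lck did not accompany Cd3e in plasma cells. In plasma cell KO Cd4 measured 0.0461 to 0.0731 and Lck 0.899 to 1.95, against 1.08 to 2.05 for Lck in plasma cell Ctrl. In activated B cells Lck measured 6.32 to 7.29 in Ctrl and 9.73 to 12.1 in KO.

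Serpinb7 (Entrez 116872, chr1:107422689-107452689), a serine protease inhibitor of the serpin family, measured 5.03, 5.36 and 6.54 in plasma cell Ctrl and 42.4, 53.8 and 47.1 in KO. In activated B cells it stayed between 0.444 and 1.25 in both genotypes. The KO libraries of plasma cells were again the only high ones (difference 2.73, SE 0.23, limma adjusted p = 1.6e-05). Tas2r126, a bitter taste receptor, measured 0.739 to 1.85 in plasma cell Ctrl against 7.44 to 10.5 in KO, with 0.276 to 1.2 in activated B cells (difference 2.57, SE 0.28, adjusted p = 1.4e-04). The expressed sequence AU015791 followed the same course, with 1.15 to 2.35 in plasma cell Ctrl, 8.8 to 10.1 in KO and at most 0.864 in activated B cells.

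Wfdc15a and Clec2g were raised by the knockout in both cell types, further in plasma cells. Wfdc15a (Entrez 68221, chr2:164198872-164200117), a small protein with a whey acidic protein domain that is placed here in the germline list, measured 0, 0.257 and 0 in activated B Ctrl and 2.86, 4.5 and 5.49 in KO. In plasma cells it measured 0.334, 0 and 0 in Ctrl and 26.4, 27.3 and 27.4 in KO. All KO libraries exceeded all Ctrl libraries, and the plasma cell KO libraries lay near each other and well above those of activated B cells. Wfdc15a reached the filter for testing through its KO groups alone. The effect was 2.26 in activated B cells and 4.67 in plasma cells, a difference of 2.41 (SE 0.26, limma adjusted p = 1.1e-04). The lectin-like receptor Clec2g was called higher in both cell types too, at 1.55 to 2.33 in activated B KO and 7.52 to 10.6 in plasma cell KO, against at most 1.45 in Ctrl (difference 1.73, SE 0.25). Clec2g likewise reached the filter through its KO groups alone.

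Germline genes are textbook targets of H3K9 methylation, but few had values here. Of 47 listed, 5 passed the filter of 1 RPKM in at least 1 group, and a gene could pass it through its KO level alone, so this count says nothing of the others. The 3 called had a more positive effect in plasma cells, as did 2.19% of all genes. They were Wfdc15a, Tuba3b, a testis tubulin, and Piwil2, a germ cell protein of the piRNA pathway. Wfdc15a and Tuba3b passed the filter through KO groups alone, so these shares cannot be compared. Tuba3b was at 0 in all 6 activated B libraries, and in plasma cells it measured 0.398 to 0.876 in Ctrl against 2.65 to 2.85 in KO (difference 1.27, SE 0.21, limma adjusted p = 0.004). Piwil2 measured 0.76 to 1.78 in plasma cell Ctrl against 4.29 to 5.41 in KO (adjusted p = 0.040), with 1.17 to 2.63 over the activated B libraries. A pseudocount of 0.1 in place of 1, left 0 of the 3 called.

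Mrc1, the mannose receptor of macrophages and sinusoidal cells, measured 7.4, 9.15 and 8.69 in plasma cell Ctrl and 25, 30.2 and 32.9 in KO, and 0.861 to 1.51 in activated B cells. Its difference was 1.83 (SE 0.19, limma adjusted p = 1.1e-04). Macrophage markers varied between libraries. Plasma cell KO 4, where Mrc1 was highest at 32.9, had C1qc at 10.4, C1qb at 7.26, C1qa at 6.38, Csf1r at 6.26 and Lyz2 at 7.87. In plasma cell KO 1 and 3, with Mrc1 at 25 and 30.2, C1qc measured 0.605 and 0.191, C1qb 1.2 and 1.9, Csf1r 0.163 and 0, and Lyz2 1.06 and 5.16. Plasma cell Ctrl 4, with Mrc1 at 8.69, had Lyz2 at 10.5, C1qb at 3.64 and C1qc at 2.27, and activated B KO 3 had Lyz2 at 25.4. The summed level of 11 macrophage markers was 61 to 68 in plasma cell Ctrl against 77.1 to 113 in KO, much of it from Ly86, which B cells express as well. That of 4 erythroid markers was 1.68 to 2.16 and 6.46 to 61.5 in plasma cells, highest in KO 4, and 14.5 to 16.2 and 66 to 82.1 in activated B cells. None of the erythroid markers was called in the difference by limma, at adjusted or unadjusted p. The part of such cells in the results was not tested. Without plasma cell KO 4 the calls numbered 191 and 43.

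**Figure D2:**
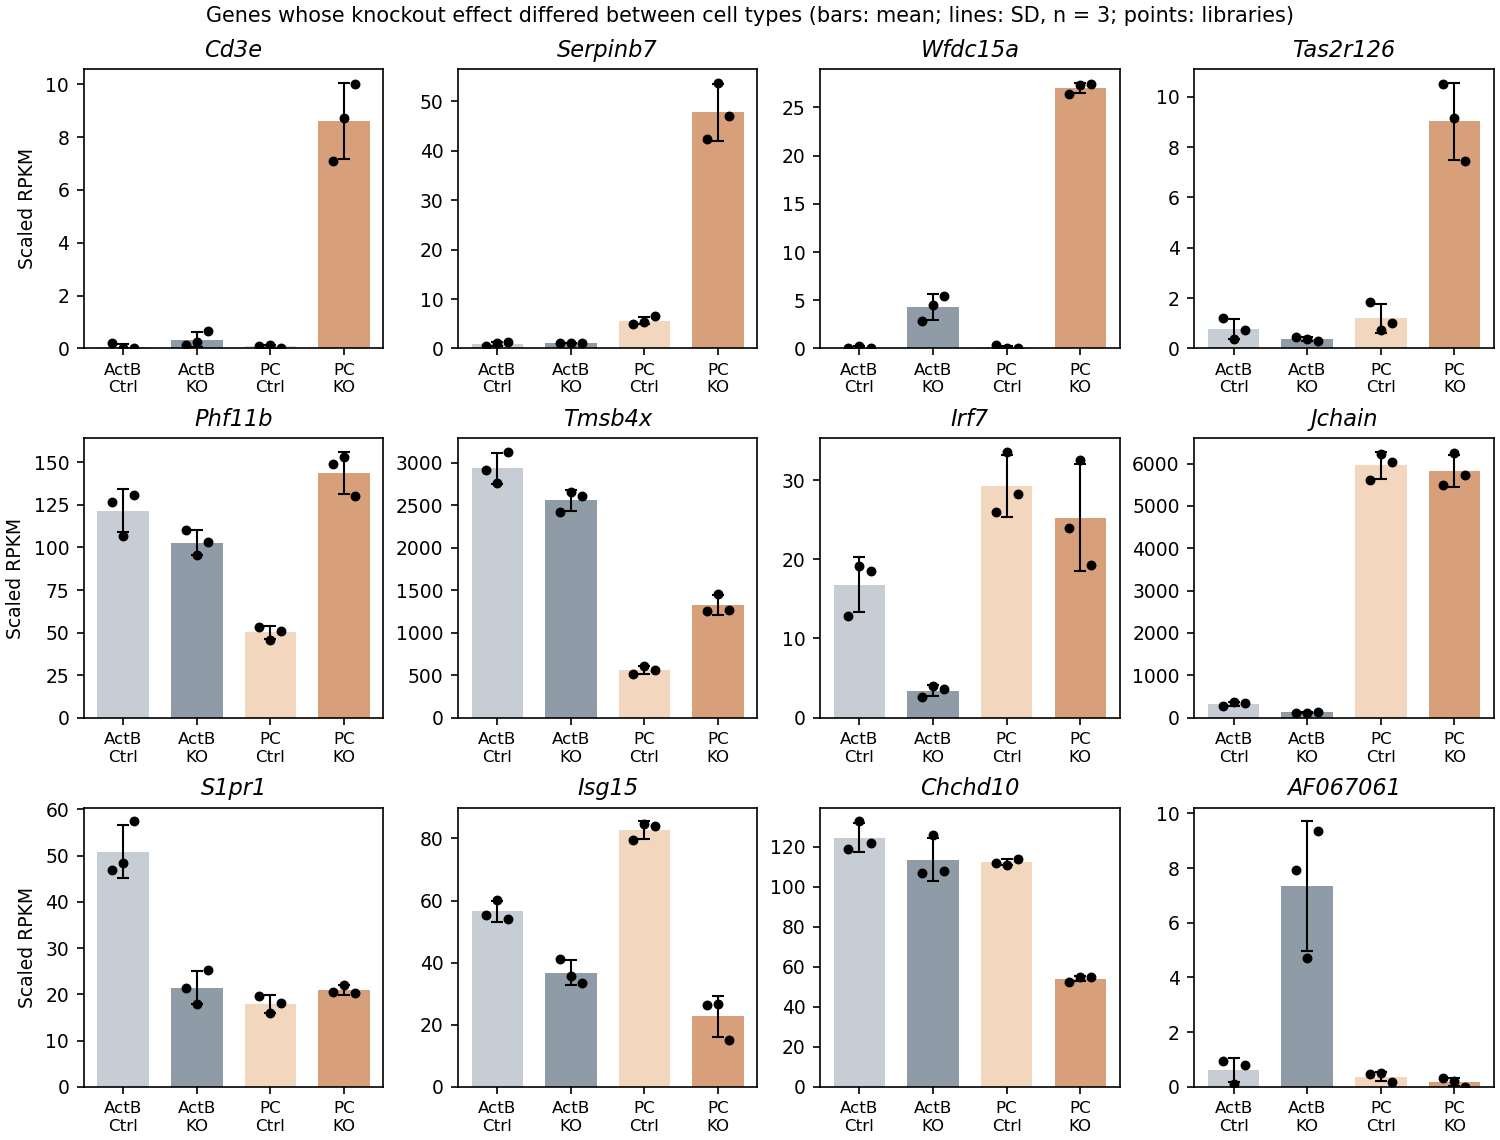
Scaled RPKM of 12 genes in each library (points, n = 3 per group), with bars for the group mean and lines for the SD; ActB is activated B cells and PC plasma cells, and each panel has its own axis from 0. The top row holds genes that rose mainly in plasma cell KO, Irf7, Jchain and S1pr1 were called lower in KO in activated B cells and not in plasma cells, Isg15 and Chchd10 are lowest in plasma cell KO, and AF067061 is high in activated B KO alone.

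Some genes that were lower in plasma cells than in activated B cells of Ctrl mice were higher in plasma cells without G9a. The examples form no list and carry no count. Of 12 activated B cell markers, 2 had a more positive effect in plasma cells and 0 a more negative effect, and within plasma cells 3 were called higher in KO and 1 lower. Over all genes the shares were 2.19% and 0.472% in the difference, and 4.39% and 3.97% within plasma cells. Among these markers Fcer2a measured 0.236 to 0.391 in plasma cell Ctrl against 0.855 to 1.04 in KO, Zbtb32 1.5 to 2.02 against 2.39 to 4.66, and Cd79a 687 to 881 against 412 to 473. Plasma cell KO 3 stood apart at Cd22, with 3.61 against at most 1.18 in the other plasma cell libraries, and at Spib, with 2.25 against at most 0.859. The part of activated B cells in these results was not tested. Phf11b (Entrez 236451, chr14:59320964-59341388), an interferon-inducible PHD finger protein, measured 127, 107 and 131 in activated B Ctrl and 110, 95.6 and 103 in KO. Plasma cells gave 53.4, 45.7 and 51 in Ctrl and 149, 153 and 130 in KO. The plasma cell KO libraries were the highest of all, except that the lowest of them lay just under the highest activated B Ctrl library (difference 1.74, SE 0.13, limma adjusted p = 9.9e-06). Its neighbour Phf11a measured 1.15 to 3.26 in plasma cell Ctrl against 12.9 to 17.2 in KO, and in activated B cells it was higher in KO as well, at 26.8 to 31.8 against 15 to 22.2 (difference 1.63, SE 0.29). Reads could be shared between the Phf11 genes, which are close paralogs.

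Tmsb4x (chr X), the actin-sequestering thymosin beta 4, was chosen for mention after its values were seen. It measured 519, 612 and 561 in plasma cell Ctrl and 1250, 1460 and 1270 in KO, against 2420 to 3130 over all activated B libraries. Plasma cells of KO mice thus stood between plasma cell Ctrl and activated B cells (difference 1.43, SE 0.12, limma adjusted p = 1.6e-05). Siglecg, an inhibitory sialic acid receptor of B cells, behaved alike at lower plasma cell levels, with 3.33 to 5.31 in plasma cell Ctrl, 8.37 to 9.07 in KO and 154 to 215 in activated B cells (difference 1.02, SE 0.18, adjusted p = 0.006). Il10ra, a chain of the interleukin 10 receptor, measured 0.863 to 1.89 and 4.29 to 5.62 in plasma cells and 67.6 to 102 in activated B cells (difference 1.62), and Gimap3, a GTPase of lymphocyte survival, 2.92 to 3.63, 8.61 to 12.4 and 187 to 218 (difference 1.25). These last genes were likewise picked after their values were known.

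Of 44 B cell identity genes, all tested, the effect was more positive in plasma cells at 7 and more negative at 1. Over all genes these calls made up 2.19% and 0.472%. The median difference was 0.24 against 0.02 over all genes. Among the 7 were Siglecg, the phosphatase Ptpn6, the adaptor Bank1, the inhibitory receptor Cd72, the complement receptor Cr2 and the transcription factor Foxo1. They did not reach the call alike. Siglecg, Ptpn6, Bank1 and Cr2 were called higher in plasma cell KO, Cr2 at 20.6 to 23.9 against 12.9 to 14.7. Cd72 and Foxo1 were called lower in activated B KO, Cd72 at 67 to 97.8 against 156 to 182. Without activated B Ctrl 4 the number of identity genes called was 3, and without plasma cell Ctrl 1 or KO 3 it was 4.

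Antigen receptor and Toll-like receptor signalling gave 5 of 40 tested genes with a more positive effect and 0 with a more negative effect (median difference 0.19). The shares over all genes were 2.19% and 0.472%. The Src family kinase Lyn was called in opposite directions, at 149 to 162 in activated B Ctrl and 120 to 137 in KO but 35.7 to 38.6 in plasma cell Ctrl against 44.1 to 48.2 in KO (difference 0.60, SE 0.10, limma adjusted p = 0.004). Tlr7 (chr X), the endosomal sensor of single-stranded RNA, measured 5.46 to 8.38 in plasma cell Ctrl against 9.62 to 13.9 in KO, reaching the range of activated B cells, 8.84 to 12.3 (difference 1.03, SE 0.20, adjusted p = 0.011). Called members also included Ly86 and Cd180, partners in a Toll-like receptor complex of B cells, of which Ly86 was higher in plasma cell KO and Cd180 lower in activated B KO.

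Interferon-stimulated genes were split between cell types and directions. Of 66 listed, 59 were tested. The effect was more positive in plasma cells at 8 and more negative at 1, against 2.19% and 0.472% of all genes. The median difference was 0.18. Irf7 (Entrez 54123, chr7:141263183-141266499), the transcription factor that amplifies type I interferon, measured 12.8, 19.1 and 18.5 in activated B Ctrl and 2.64, 3.99 and 3.63 in KO. Plasma cell levels were 26, 33.6 and 28.2 in Ctrl and 23.9, 32.6 and 19.3 in KO. The groups separated in activated B cells and overlapped in plasma cells, where the effect was -0.23 (limma adjusted p = 0.496), and the difference was 1.77 (SE 0.26, adjusted p = 0.001).

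The nucleic acid sensors Zbp1 and Ddx58 had the course of Irf7: Zbp1 measured 22.4 to 26.8 and 12.8 to 14.5 in activated B cells and overlapped at 75.4 to 95.5 in plasma cells (difference 0.79). Slfn8, a Schlafen family protein, and Ifi27l2a were instead called in opposite directions. Slfn8 measured 6.78 to 7.51 in activated B Ctrl and 3.34 to 3.9 in KO, and 3.8 to 5.55 in plasma cell Ctrl against 6.68 to 7.13 in KO (difference 1.24, SE 0.17, limma adjusted p = 9.1e-04). Isg15 (Entrez 100038882, chr4:156199424-156200818), a ubiquitin-like modifier and a classic interferon target, went the other way. It measured 55.3, 60.2 and 54 in activated B Ctrl and 41.1, 35.6 and 33.3 in KO, and in plasma cells 79.4, 84.8 and 84 in Ctrl and 26.4, 26.7 and 15 in KO. Isg15 thus fell in both cell types and further in plasma cells (difference -1.25, SE 0.22, adjusted p = 0.005), while Phf11b of the same list rose there.

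Genes of antibody secretion were among those lowered by the knockout in activated B cells and less so in plasma cells. Of 49 plasma cell program genes 45 were tested. The effect was more positive at 11 and more negative at 1, against 2.19% and 0.472% of all genes. Medians were -0.36 in activated B cells, -0.16 in plasma cells and 0.29 for the difference. Of 8 plasma cell markers, 5 were called lower in activated B KO and 0 higher, against 11.7% and 7.55% of all genes. Sdc1, low in this sort, measured 0.734 to 1.27 in activated B Ctrl and 0.44 to 0.626 in KO. Tnfrsf13b measured 250 to 297 in activated B Ctrl and 257 to 292 in KO, and Irf4 overlapped as well. The summed level of the 8 markers was 1020 to 1150 in activated B Ctrl and 595 to 706 in KO. Much of it came from Jchain and Xbp1, which the program list also holds, as it does Prdm1. In plasma cells that sum was 8870 to 9970 and 8210 to 9270. The part of plasma cells within the activated B cell sort in these results was not tested. Jchain (Entrez 16069, chr5:88519809-88527897), which joins IgM and IgA units, measured 270, 358 and 350 in activated B Ctrl and 117, 119 and 133 in KO. In plasma cells it measured 5600, 6230 and 6040 in Ctrl and 5490, 6240 and 5730 in KO, so the genotypes separated in activated B cells and overlapped in plasma cells (difference 1.36, SE 0.14, limma adjusted p = 1.1e-04). Prg2, the eosinophil major basic protein, which was also abundant in these plasma cells, measured 9.65 to 17.6 and 2.5 to 3.08 in activated B cells and overlapped at 34.3 to 60 in plasma cells (difference 1.85, SE 0.29, adjusted p = 0.003).

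Regulators of the program were not alike. Prdm1 measured 25.4 to 35.4 in activated B Ctrl and 13.1 to 20.6 in KO, and 97.1 to 107 and 92 to 102 in plasma cells (difference 0.82, SE 0.19, limma adjusted p = 0.030). Xbp1 measured 395 to 417 and 164 to 232 in activated B cells, and 2250 to 2620 and 1760 to 2020 in plasma cells, where its effect of -0.33 was not called (adjusted p = 0.070; difference 0.67, adjusted p = 0.027). Both were named after their values were seen, as was Irf4, another regulator of plasma cells, which was called in neither cell type nor in the difference (42.7, 47.6 and 41.6 in activated B Ctrl, 30.8, 47.4 and 41.9 in KO, difference 0.15, SE 0.17, adjusted p = 0.728). Bhlha15, or Mist1, which builds the secretory apparatus, was lower in both cell types, at 28.8 to 34.7 and 8.94 to 12.8 in activated B cells and 209 to 229 and 160 to 170 in plasma cells (difference 0.99, SE 0.15, adjusted p = 0.002).

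Unfolded protein response and ER folding genes were lowered broadly, and most were not called in the difference between the cell types. Of 53 tested, 44 were lower in activated B KO and 18 in plasma cell KO, with 0 higher in either, where 11.7% and 3.97% of all genes were lower, and 5 had a more positive effect in plasma cells, against 2.19% of all genes. Those 5 were Derl3, Bhlha15, Txndc5, Hspa13 and Xbp1, and 45 of the 53 had a difference above 0. The median difference was 0.23, against 0.02 over all genes. At an unadjusted limma p under 0.05 there were 26 of the 53, and 1651 of all 10391 genes. Derl3 (Entrez 70377, chr10:75893398-75895941), of the degradation of misfolded ER proteins, measured 137, 146 and 135 in activated B Ctrl and 44.2, 43.5 and 54.7 in KO. Plasma cell levels were 876, 877 and 905 in Ctrl and 586, 622 and 579 in KO. The genotypes separated in both cell types, with effects of -1.54 and -0.57 (difference 0.97, SE 0.12, limma adjusted p = 2.3e-04). The count of 5 was among the least stable: it was 9 with values as deposited, 14 with quantile normalization, 8 without activated B KO 4, and 3 without plasma cell Ctrl 1 or KO 3.

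Whether such a gene responded more in activated B cells depends on the scale. In RPKM, Derl3 dropped by 92 in activated B cells and by 290 in plasma cells, and Xbp1 dropped by 200 in activated B cells and dropped by 489 in plasma cells; both start from a higher level in plasma cells. The linear difference had the sign opposite to the log2 difference at 29 of the 228 genes, of which 14 were among the 16 genes lower in both cell types, and at 1 of the 49. Jchain was not among them, with drops of 203 and 137 RPKM.

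Of 75 genes of ER translocation, glycosylation and vesicle transport, 4 had a more positive effect in plasma cells and 0 a more negative effect (median 0.11). Such calls made up 2.19% and 0.472% of all genes. Tram2, a component of the translocation channel, measured 7.22 to 8.62 and 3.62 to 4.53 in activated B cells and overlapped at 61.9 to 72 in plasma cells (difference 0.77, SE 0.14, limma adjusted p = 0.005). Arfgap3, which acts on Golgi vesicle coats, measured 15.5 to 17.5 and 7.26 to 8.5 in activated B cells and 93.8 to 105 and 71.5 to 80.5 in plasma cells (difference 0.61, SE 0.12, adjusted p = 0.010). The COPII coat protein Sec24d and Tram1 completed the 4. Lgmn, a lysosomal protease of antigen processing and the only called member of 17 MHC class II presentation genes, was also lower in both cell types, at 93.8 to 110 and 39.2 to 48.2 against 162 to 171 and 116 to 121 (difference 0.66, SE 0.12). D17H6S56E-5, which lies close to Ehmt2 on chromosome 17 at chr17:34996678-35000774, measured 56.2 to 65.9 and 15.5 to 16.7 in activated B cells and 461 to 486 and 231 to 254 in plasma cells (difference 0.88, SE 0.10, adjusted p = 2.0e-04), and no other of 19 tested genes near Ehmt2 was called.

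Immediate early and quiescence genes had a median difference of 0.42, from -0.51 in activated B cells and -0.02 in plasma cells. Of 37 listed 32 were tested. A more positive effect was called at 6 and a more negative effect at 0, against 2.19% and 0.472% of all genes. Btg1 (Entrez 12226, chr10:96617001-96622813), an antiproliferative factor of resting lymphocytes, measured 69.4, 72.1 and 88.2 in activated B Ctrl against 40.2, 35 and 40 in KO. Its plasma cell values were 2.61, 1.64 and 2.43 in Ctrl against 3.92, 5.77 and 3.36 in KO. It was thus lower without G9a in activated B cells and higher in plasma cells, with no overlap in either (difference 1.69, SE 0.22, limma adjusted p = 4.7e-04). The transcription factor Klf6 was called in opposite directions too, at 25 to 28.4 and 19.3 to 20.9 in activated B cells and 7.29 to 9.84 and 10.4 to 12.8 in plasma cells (difference 0.87, SE 0.15, adjusted p = 0.005). The other 4, the G protein regulator Rgs2, the GTPase Rhob, the AP-1 subunit Jun and the phosphatase Dusp1, were lower in activated B KO and not called in plasma cells.

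Trafficking and adhesion genes were called at 5 of 28 tested, all with a more positive effect in plasma cells (median 0.27), against 2.19% of all genes. S1pr1 (Entrez 13609, chr3:115710433-115715055), the sphingosine 1-phosphate receptor that lymphocytes use to leave lymphoid tissue, measured 46.8, 48.3 and 57.5 in activated B Ctrl and 21.3, 17.9 and 25.2 in KO. Plasma cells gave 19.6, 15.9 and 18.2 in Ctrl and 20.4, 22.1 and 20.2 in KO. Activated B cells of KO mice thus fell to about the level of plasma cells, where the effect of 0.22 was not called (difference 1.43, SE 0.17, limma adjusted p = 2.0e-04). Cnr2, the cannabinoid receptor of B cells, measured 34.3 to 44 and 23.9 to 26.1 in activated B cells and 1.19 to 2.55 and 2.48 to 3.07 in plasma cells (difference 1.07, SE 0.21, adjusted p = 0.011). The selectin ligand Selplg and the GTPase regulator Arhgap25 were lower in activated B KO alone, and the receptor P2ry10 was higher in plasma cell KO alone, by their own calls.

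Among other members with a more positive effect, the histone gene Hist1h2ag measured 11.8 to 14.2 and 2.96 to 7.23 in activated B cells and overlapped at 4.29 to 11.6 in plasma cells (difference 1.70, SE 0.37, limma adjusted p = 0.021), and its sequence is shared with other histone genes. It was not called without activated B Ctrl 4, plasma cell KO 1 or plasma cell KO 3 (adjusted p up to 0.060). Ly6c1, a surface protein of plasma cells, rose in both, with 5.5 to 6.28 in Ctrl and 6.82 to 8.4 in KO of activated B cells and 18.7 to 22.1 and 44.6 to 49.5 in plasma cells (difference 0.82, SE 0.14, adjusted p = 0.004). Hmces, which shields abasic sites in DNA, measured 12.2 to 16.9 and 7 to 9.02 in activated B cells and overlapped in plasma cells (adjusted p = 0.036). Trp53inp1, a p53 target, was lower in both, at 17.2 to 19 and 9.12 to 10.3 in activated B cells and 273 to 296 and 198 to 225 in plasma cells (adjusted p = 0.039). Both of the latter lost their calls without any of 8 libraries in turn, with adjusted p up to 0.102 for Hmces and 0.117 for Trp53inp1.

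Of the 49 genes with a more negative effect in plasma cells, 31 rose in activated B KO and were not called in plasma cells. AF067061 (Entrez 236546, chr13:120263095-120264517), a gene without an established role, measured 0.941, 0.115 and 0.803 in activated B Ctrl and 7.95, 4.72 and 9.37 in KO. In plasma cells it did not exceed 0.496 in either genotype, so the activated B KO libraries were the only high ones (difference -2.60, SE 0.33, limma adjusted p = 4.4e-04). AF067061 reached the filter for testing through activated B KO alone. Rgs18, a G protein regulator of blood cells, measured 1.79 to 3.55 and 5.83 to 10.2 in activated B cells and at most 0.369 in plasma cells. Gbp2b, an interferon-inducible GTPase, measured 6.42 to 9.42 and 24.5 to 31.3 in activated B cells and at most 1.45 in plasma cells (difference -1.44, SE 0.24, adjusted p = 0.004).

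The chemokine receptor Ccr1 and the ligand of PD-1 encoded by Pdcd1lg2 had the same pattern. Ccr1 measured 1.67 to 2.6 and 6.24 to 7.11 in activated B cells and at most 0.356 in plasma cells (difference -1.32, SE 0.22, limma adjusted p = 0.004). Pdcd1lg2 measured 0.979 to 1.65 and 4.9 to 6.17, and at most 0.855 in plasma cells (adjusted p = 0.015). At 11 of the 49 genes plasma cells were under 1 RPKM in both genotypes, so their contrast compares a change in activated B cells with a gene that was nearly silent in plasma cells; of the 228 genes 11 were this low in plasma cells and 14 in activated B cells. A pseudocount of 0.1 ended the calls of Gbp2b, Ccr1 and Pdcd1lg2.

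Genes expressed in both cell types were among the 31 as well. Fntb (chr12:76837400-76921412), the beta subunit of farnesyltransferase, measured 5.06, 4.35 and 4.01 in activated B Ctrl and 10.5, 14.1 and 12.5 in KO, and 7.9, 7.9 and 8.41 against 9.04, 7.1 and 8.48 in plasma cells. Emb (Entrez 13723, chr13:117220573-117274415), the adhesion protein embigin, measured 5.42, 6.03 and 5.51 in activated B Ctrl and 18.8, 17.9 and 16.6 in KO, and 11.9, 10.1 and 10 against 12.7, 13.4 and 12.8 in plasma cells. For both genes the effect was above 1 in activated B cells and not called in plasma cells, and the differences were -1.27 (SE 0.17, limma adjusted p = 7.0e-04) and -1.23 (SE 0.13, adjusted p = 1.3e-04). Dnph1, a nucleotide hydrolase and Myc target, measured 5.4 to 7.58 and 15.7 to 21.5 in activated B cells and 4.49 to 5.27 and 5.3 to 8.22 in plasma cells (difference -1.01, adjusted p = 0.023). It was not called without activated B Ctrl 4, activated B KO 3, plasma cell Ctrl 1 or plasma cell KO 3 (adjusted p up to 0.065).

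Growth and glycolysis lists leaned to activated B cells, though most of their members did not pass the test of the difference. Of 63 ribosome biogenesis and Myc target genes 46 were higher in activated B KO and 12 in plasma cell KO, with medians of 0.39 and 0.20, and only Gnl3 was called in the difference. Over all genes 7.55% and 4.39% were higher, and 0.472% had a more negative effect in plasma cells. Gnl3, the nucleolar protein nucleostemin, measured 37.4 to 45.9 and 51 to 56.1 in activated B cells but 103 to 126 and 79.5 to 96.6 in plasma cells, opposite directions that were both called (difference -0.73, SE 0.14, limma adjusted p = 0.008). Of 30 glycolysis and pentose phosphate genes 15 were higher in activated B KO and 1 in plasma cell KO, the latter near the share of all genes. A more negative effect in plasma cells was called at 3 (median difference -0.21), against 0.472% of all genes. Aldoa, the glycolytic aldolase, measured 229 to 253 and 299 to 361 in activated B cells and 182 to 200 and 170 to 188 in plasma cells (difference -0.51, SE 0.11, adjusted p = 0.021). Pdk1, which restrains entry of pyruvate into mitochondria, measured 5.35 to 5.67 and 8.15 to 10.7, and overlapped at 9.38 to 11.6 in plasma cells (difference -0.73, adjusted p = 0.023). Aldoa lost its call without activated B Ctrl 4, plasma cell Ctrl 1 or plasma cell KO 4 (adjusted p up to 0.059), and Pdk1 without activated B Ctrl 4, KO 1 or KO 3, plasma cell Ctrl 4, KO 1 or KO 3 (adjusted p up to 0.060). The third was the mitophagy receptor Bnip3, and the count of 3 went to 0 without activated B Ctrl 4 and to 1 without activated B KO 1 or 3, plasma cell Ctrl 1, or any plasma cell KO library.

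Fewer genes were lowered by the knockout in plasma cells in particular. Vpreb3 (Entrez 22364, chr10:75943024-75949657), which binds nascent immunoglobulin light chains in B cells, measured 264, 274 and 245 in activated B Ctrl and 138, 120 and 133 in KO. Plasma cell values were 145, 165 and 139 in Ctrl and 41.6, 32.9 and 31.7 in KO, so it fell in both, by 1.00 and by 2.06 (difference -1.06, SE 0.14, limma adjusted p = 5.8e-04). Its neighbour Chchd10, a mitochondrial protein of the cristae, measured 107 to 133 over all activated B libraries, and in plasma cells 111 to 114 in Ctrl against 52.6 to 54.8 in KO (difference -0.90, SE 0.10, adjusted p = 2.0e-04), and was picked after its values were seen. Only the plasma cell KO libraries of Chchd10 were low.

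Rhpn2, a scaffold protein expressed in plasma cells here, measured 10.4 to 15.1 in plasma cell Ctrl against 4.48 to 6.17 in KO, and at most 0.627 in activated B cells (difference -1.05, SE 0.24, limma adjusted p = 0.029). Fam212a measured 7.59 to 11.9 and 3.62 to 5.74 in plasma cells and overlapped at 15.8 to 19.2 in activated B cells (difference -0.99, limma adjusted p = 0.024). The cyclin Ccne2 and the amino acid transporter chain Slc3a2 were called with smaller differences, -0.59 and -0.40 (adjusted p = 0.033 and 0.049). Slc3a2 measured 179 to 189 in plasma cell Ctrl against 122 to 140 in KO, and 46.5 to 53.7 in activated B cells. Leaving out single libraries ended the calls of Rhpn2 in 8 of 12 cases, Fam212a in 7, and Ccne2 and Slc3a2 in 10 each, with limma adjusted p up to 0.074, 0.067 and 0.128 for Rhpn2, Fam212a and Slc3a2.

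**Figure D3:**
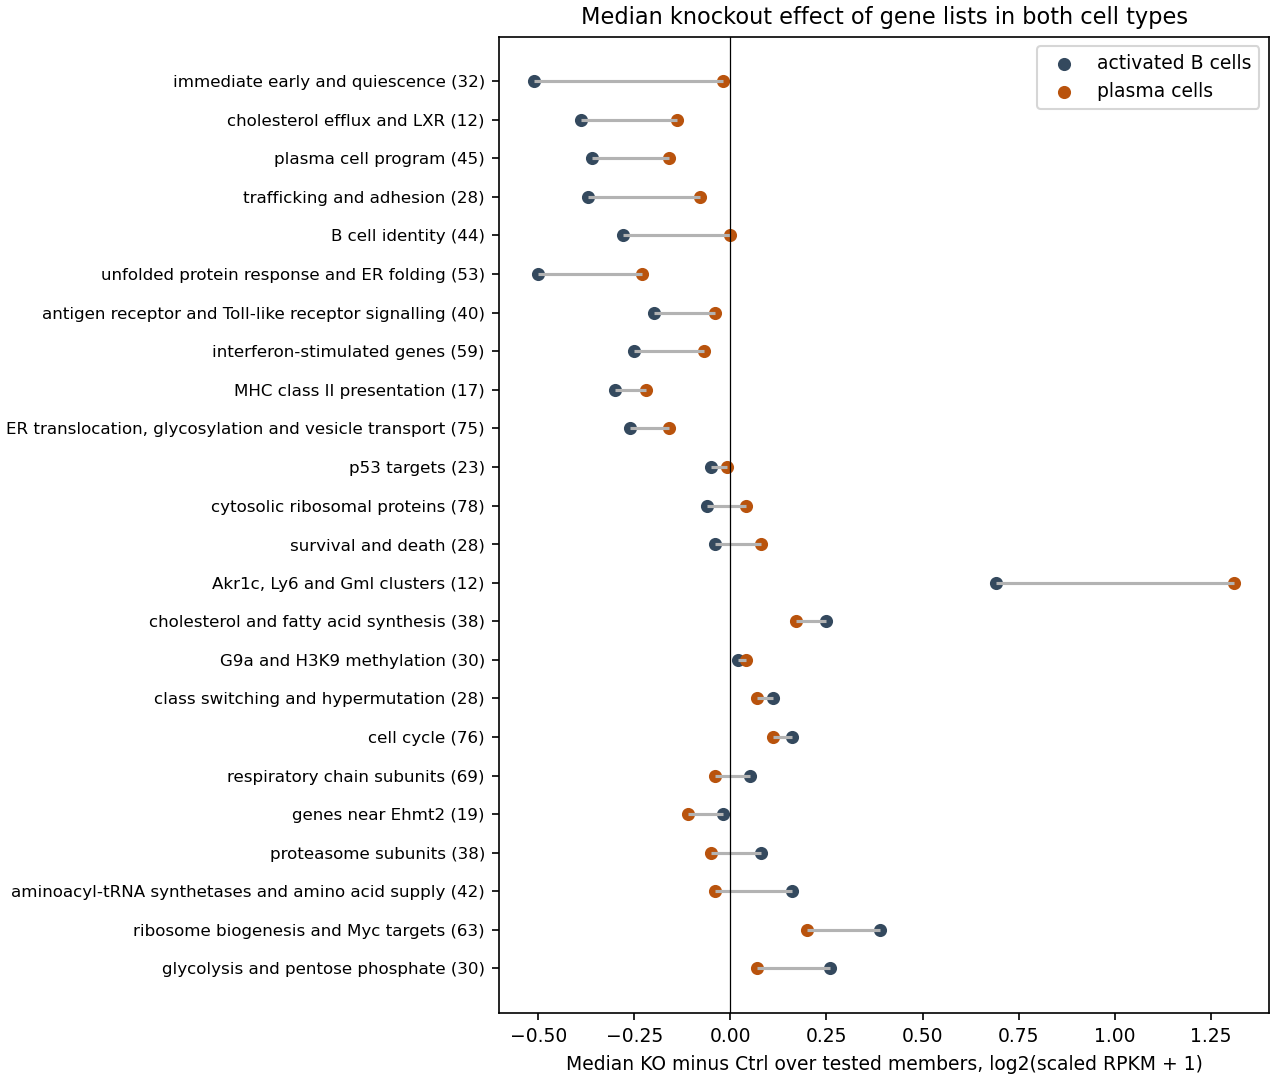
Median knockout effect (KO minus Ctrl, log2(scaled RPKM + 1)) over the tested members of each gene list with at least 10 of them (number in brackets), in activated B cells (dark blue) and plasma cells (orange). Immediate early, secretory and trafficking lists lie lower in activated B cells, glycolysis and ribosome biogenesis lists lie higher there, and lists such as G9a and H3K9 methylation have both medians near 0.

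Many lists held no called gene. None of 30 genes of G9a and H3K9 methylation, 38 of cholesterol and fatty acid synthesis, 12 of cholesterol efflux, 69 respiratory chain subunits, 78 cytosolic ribosomal proteins, 28 survival genes or 38 proteasome subunits had a called difference by limma, where 2.67% of all genes did. At an unadjusted p under 0.05 they held 4, 1, 5, 3, 4, 5 and 7 genes in that order, and all genes held 1651 of 10391. The 5 of 12 for cholesterol efflux lay far above the share of all genes. The 1 of 38 for cholesterol and fatty acid synthesis, 3 of 69 for the respiratory chain and 4 of 78 for ribosomal proteins lay far below it. Median differences of these lists ran from -0.13 for the proteasome to 0.34 for cholesterol efflux. Some of the strongest knockout responses were likewise not called in the difference. Akr1c13, an aldo-keto reductase, was at most 0.758 in Ctrl and measured 35.5 to 40.5 in activated B KO and 22.4 to 25.7 in plasma cell KO (difference -0.67, SE 0.26, adjusted p = 0.214), and the lipid carrier Apoe fell by 3.74 and by 2.09 (difference 1.64, SE 0.50, adjusted p = 0.106). Such differences are imprecise, and missing the threshold does not show that the effects were equal.

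Among genes with a more positive effect in plasma cells, the promoters of those also called higher in plasma cell KO held few CpG dinucleotides. Promoter windows of 300 bases, 250 before and 50 after the start site, were taken from RefSeq (GRCm38.p6) and matched 8404 of the 10391 genes. The median CpG number was 21 over all of these, 6 in 71 of the 87 genes higher in plasma cell KO, 16.5 in 108 of the 139 genes lower in activated B KO and not higher in plasma cell KO, and 18 in 40 of the 49 genes with a more negative effect. Windows with at most 5 CpG made up 8.89%, 47.9%, 15.7% and 25% of these sets. The sets also differed in level, with median values of the highest group mean of 15.7, 29.3, 39.2 and 17.9 RPKM, and the part of level or cell type in the CpG difference was not tested.

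**Figure D4:**
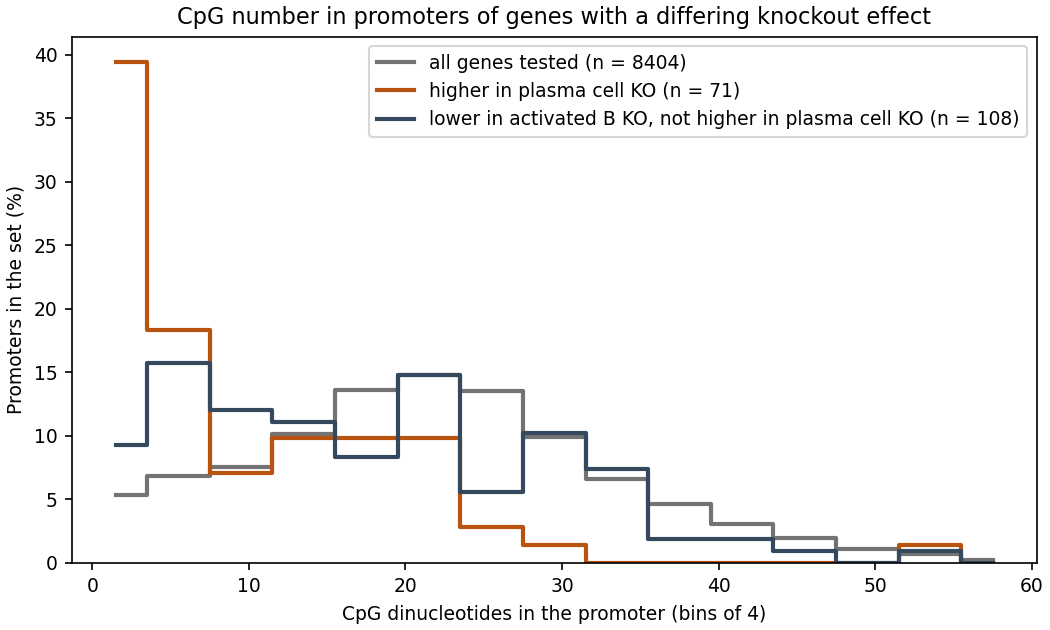
Share of promoters (%, y axis) by the number of CpG dinucleotides in the 300-base window (x axis, bins of 4) for all genes tested (grey, n = 8404), genes with a more positive difference that were higher in plasma cell KO (orange, n = 71) and those lower in activated B KO and not higher in plasma cell KO (dark blue, n = 108). The orange line is highest at the lowest CpG numbers, and the grey line has its median at 21.

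Promoters of 2 genes gained in plasma cell KO are shown, both below the median of 21 CpG over all genes. CpG are in capitals for Wfdc15a (chr2:164200068-164200367, reverse strand, 9 CpG). For Serpinb7 (chr1:107422439-107422738, forward strand, 0 CpG), a match to the PU.1 type ETS motif is in capitals.
Wfdc15a: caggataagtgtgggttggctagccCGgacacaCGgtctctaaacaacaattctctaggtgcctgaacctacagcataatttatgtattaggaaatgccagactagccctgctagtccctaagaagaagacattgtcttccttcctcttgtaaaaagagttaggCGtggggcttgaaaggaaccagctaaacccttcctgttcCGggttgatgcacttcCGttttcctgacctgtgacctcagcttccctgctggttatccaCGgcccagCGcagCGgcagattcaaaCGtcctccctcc
Serpinb7: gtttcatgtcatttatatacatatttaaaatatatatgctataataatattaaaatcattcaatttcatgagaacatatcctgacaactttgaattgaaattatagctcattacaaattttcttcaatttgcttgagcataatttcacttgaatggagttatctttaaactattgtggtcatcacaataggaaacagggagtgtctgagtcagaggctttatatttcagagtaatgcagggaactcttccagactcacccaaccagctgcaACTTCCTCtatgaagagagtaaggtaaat
The motif GAGGAAGT, searched on both strands, was found in 3.55% of all windows and in 8 of the 71 (11.3%): Cd53, Cyp4f16, Fgd2, Phf11a, Phf11b, Pld4, Serpinb7 and Slc12a4. It was found in 5.56% of the windows of genes lower in activated B KO and in 0% of those with a more negative effect. A match is a run of letters in this window and not a measured binding site.

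Phf11b and Isg15 are shown because both are interferon-inducible, both hold the motif GAAANNGAAA (capitals), and their RNA moved in opposite directions in plasma cell KO. Their windows are chr14:59341281-59341580, reverse strand, with 1 match, and chr4:156200769-156201068, reverse strand, with 3 overlapping matches.
Phf11b: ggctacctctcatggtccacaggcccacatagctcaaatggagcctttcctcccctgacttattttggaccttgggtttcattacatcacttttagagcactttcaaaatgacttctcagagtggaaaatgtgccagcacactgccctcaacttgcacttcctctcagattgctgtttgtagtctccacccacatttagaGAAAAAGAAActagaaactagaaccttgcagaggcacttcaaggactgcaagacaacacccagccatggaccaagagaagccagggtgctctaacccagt
Isg15: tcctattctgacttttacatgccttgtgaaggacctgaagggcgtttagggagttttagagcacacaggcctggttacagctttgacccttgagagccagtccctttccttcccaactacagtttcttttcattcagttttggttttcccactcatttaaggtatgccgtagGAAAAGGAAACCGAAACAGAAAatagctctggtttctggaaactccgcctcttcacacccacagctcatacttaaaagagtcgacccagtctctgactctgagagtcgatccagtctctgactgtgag
The motif, on either strand, was present in 3.3% of all windows, 8.45% of the 71, 3.7% of the 108, 7.5% of the 40 and 48.9% of those of the interferon-stimulated list. The same letters thus occurred in genes that rose, such as Phf11a, Slfn8 and Jaml, and in Gbp2b and Isg15 with a more negative effect.

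Derl3 is shown for the ER stress response element, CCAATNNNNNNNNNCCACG on either strand, which starts 156 bases before the start site (chr10:75893148-75893447, forward strand; capitals).
Derl3: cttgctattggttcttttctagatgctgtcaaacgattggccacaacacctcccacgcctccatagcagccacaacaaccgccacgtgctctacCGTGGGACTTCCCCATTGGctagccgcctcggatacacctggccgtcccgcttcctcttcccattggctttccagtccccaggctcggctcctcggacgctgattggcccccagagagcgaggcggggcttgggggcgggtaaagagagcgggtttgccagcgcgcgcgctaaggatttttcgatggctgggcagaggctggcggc
This element was found in 10 of 45 windows of the unfolded protein response list (22.2%) and in 0.226% of all windows. Derl3 was the only gene of the 3 sets above that held it, while Hspa5, Hsp90b1, Calr and Pdia6 also hold it and were not called in the difference.

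Some called genes were neighbours. Among 10385 genes with a position, 18 adjacent pairs were both called, 16 of them in the same direction. Of all genes tested 2.67% were called, and 82.3% of the called genes were more positive in plasma cells. A shared direction would therefore be common in any pair of called genes. The number of pairs that these shares alone would give was not computed. Phf11a and Phf11b, Tmsb4x and Tlr7 on chromosome X, P2ry10, P2ry10b and Gpr174 in a row on the same chromosome, Sp110 and Sp140, and the long noncoding RNAs Malat1 and Neat1 all had more positive effects in plasma cells. Chchd10 and Vpreb3, whose starts are 9894 bases apart, both had more negative effects. Trp53inp1 and Ccne2 formed a pair with different directions. P2ry10 and P2ry10b are paralogs that could share reads, and Sp110 and Sp140 overlap.

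The share of called genes that were expressed in naive B cells lay around that of all genes tested. Of the 87 genes higher in plasma cell KO, 73.6% measured at least 5 RPKM in naive Ctrl libraries, of the 139 genes lower in activated B KO 83.5%, of the 49 genes 67.3%, and of all genes tested 77.4%. These naive values are as deposited and did not enter the fit.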

How the data were processed

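RNA-seq of mouse splenic B cells was analysed from gene-level RPKM (reads scaled to library depth and transcript length), which the authors deposited as 1 table; STAR and the mm10 build are named per the submitters' processing notes, while no source used here gives the counting tool or gene annotation. RPKM are not counts, so no count model was used.

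The 12 activated B and plasma cell libraries of replicates 1, 3 and 4 were scaled by median-of-ratios factors over 8696 genes above 1 RPKM in all 12. Genes with a group mean of at least 1 RPKM in at least 1 group were tested (10391 of 12960, with 2569 left out). Log2(scaled RPKM + 1) was fitted as 4 group means with limma 3.58.1 (R 4.3.3; trended empirical Bayes), and p-values were adjusted by Benjamini-Hochberg over all tested genes, with 0.05 as the threshold. Fold changes are therefore on the log2(RPKM + 1) scale, which understates changes of low genes. The fit was tested on simulated data. Other steps used Python 3.11.15 with matplotlib 3.10.9, pandas 2.3.3 and numpy 2.4.6.

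The members and gene lists were chosen with earlier results of these data known. Genes named were Ehmt2, up to 12 per direction with the largest difference among called genes that reach 5 scaled RPKM in at least 1 group and whose KO and Ctrl libraries did not overlap in at least 1 cell type (without numbered Gm, Rik, LOC and antigen receptor symbols), and, per list, up to 2 called members ranked by adjusted p. Symbols were matched to RefSeq for 12946 genes, 20 of them restored from spreadsheet dates, and promoter sequences and positions are from RefSeq GRCm38.p6. Depth was estimated from the spacing of low RPKM values, using gene lengths known for 96.3% of genes; a whole number of reads, within 0.1, fitted only 36.4 to 42.4% of the values scored, so it is approximate and carries no interval. The naive B cell libraries entered only an alternative fit and the checks outside the comparison. Some genes that the rule names or the lists hold are not reported here.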

Additional observations from a re-analysis of the deposited data

Results flagged for a closer look

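The effect of G9a loss differed between plasma cells and activated B cells in 228 genes with a more positive and 49 genes with a more negative effect in plasma cells (limma test of the difference). In 19 genes the KO effect passed the threshold in both cell types with opposite signs.

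Naive B cell libraries entered only the alternative fit of all 18 libraries. Among the 49 named genes 5 (10.2%) had all 3 naive KO libraries above all 3 naive Ctrl libraries in deposited RPKM and 3 (6.12%) had them below, against 5.29% and 5.58% of all genes tested; with counts this small no difference from the background is read, and no test was made. Pdcd1lg2, the PD-L2 ligand of PD-1, measured 8.54, 7 and 6.82 in naive Ctrl and 11.9, 14 and 12.8 in naive KO, a KO mean of 12.9. Fam212a measured 6.84, 8.12 and 1.25 in Ctrl and 16.4, 15 and 13.1 in KO, a KO mean of 14.8. Jchain, the joining chain of secreted antibody, measured 116, 114 and 127 in Ctrl and 183, 132 and 142 in KO, a KO mean of 152. Tlr7, the endosomal RNA sensor, measured 8.47, 11.5 and 13.4 in Ctrl and 17.1, 16.5 and 14.5 in KO, a KO mean of 16. Tuba3b stayed low, at 0, 0.157 and 0 in Ctrl and 0.168, 1.56 and 0.347 in KO, a KO mean of 0.693. The 3 genes with naive KO below Ctrl were Tas2r126, Clec2g and Gbp2b. Tas2r126 measured 8.87, 9.82 and 5.42 in Ctrl and 2.27, 4.62 and 0 in KO. Clec2g measured 2.72, 2.85 and 2.51 in Ctrl and 0.37, 1.51 and 1.24 in KO. Gbp2b measured 2.46, 6.18 and 3.14 in Ctrl and 2.41, 1.66 and 0.276 in KO. Cd3e overlapped, at 7.08, 0 and 1.66 in Ctrl and 0.366, 1.28 and 0.756 in KO.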

How the results depend on the processing

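The choice of libraries mattered most. With all 18 libraries, naive B cells included, in 1 limma fit, 20 genes had a more positive and 0 a more negative effect in plasma cells, against 228 and 49, and all 20 were among the 228. That fit called 55 genes higher and 174 lower in activated B KO, 57 higher and 22 lower in plasma cell KO, 3 interferon-stimulated genes, 1 each of the plasma cell program, B cell identity and immediate early lists, and 0 of the unfolded protein response, glycolysis and germline lists; 9 of the 48 named genes called here passed it. The cause was not tested. Array weights gave 401 and 100 genes, 689 higher and 640 lower in plasma cell KO, and 14 unfolded protein response and 13 B cell identity members. Quantile normalization gave 74 more negative genes and 14 unfolded protein response members, and values as deposited gave 272 genes lower in plasma cell KO and 9 such members. The germline count was 0 with a pseudocount of 0.1 and 1 with a filter at 5 RPKM. The difference kept its sign at each of the 49 named genes under the alternatives run, all on a log2 scale; on the linear scale it did not at the genes counted in the report.

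Leaving out 1 library at a time gave 142 to 222 more positive and 23 to 52 more negative genes, 383 to 848 higher and 813 to 1296 lower in activated B KO, and 280 to 510 higher and 223 to 527 lower in plasma cell KO. Activated B higher calls were 383 and 482 without activated B Ctrl 4 and KO 3. Plasma cell higher calls were 280 without plasma cell KO 1, and lower calls 223, 227, 250 and 265 without plasma cell KO 4, KO 1, Ctrl 3 and Ctrl 1. List counts ranged from 8 to 14 (plasma cell program), 3 to 8 (unfolded protein response), 7 to 10 (interferon), 3 to 8 (B cell identity), 4 to 6 (immediate early), 0 to 3 (glycolysis) and 2 to 3 (germline). Of the 48 called named genes, 38 were called in each of these fits.

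Whether replicate numbers pair the libraries was not settled. Deviations of same-numbered libraries correlated from -0.131 to 0.234, and 4 of 18 pairs were over 0.1. Those of differently numbered libraries correlated from -0.23 to 0.171, and 6 of 36 pairs were over 0.1. Same-numbered pairs of plasma cell Ctrl and KO stood at 0.0578, 0.216 and 0.234, and those of activated B KO and plasma cell KO at 0.0131, -0.1 and -0.00743. The replicate block gave 220 and 57 genes, and 8 unfolded protein response members against 5. Blocked within genotype it gave 192 and 39. With an estimated depth of a few M reads per library, genes under 1 RPKM carry little information.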
